A study of Mus musculus with 6 samples.

Results

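The lysosome genes described here encode acid hydrolases, lysosomal membrane proteins and the proton pump that acidifies the organelle. They came from a list of 43 gene symbols that was drawn up with earlier results of these data known, without the cathepsin proteases. Shares of all genes set beside this list are thus description and not an independent test. Of the 43 genes, 39 had a probe set annotated with that symbol alone, out of 12393 genes measured in all, and a gene with several probe sets was represented by its brightest across all 6 samples. Arsb, Cd63, Atp6v0c and Atp6v0d2 had no such probe set in the annotation used and are not analysed here. The 39 genes comprised 22 hydrolases and soluble cofactors, 7 membrane proteins and 10 proton pump genes.

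RNA of mouse CD4+CD25+ cells, a surface phenotype used to enrich regulatory T cells, was hybridised to 1 Affymetrix Mouse430a array per sample. The Hdac3 deleted group held 3 samples of genotype HDAC3-fl/fl_FOXP3cre, in which a Cre recombinase named for Foxp3 acts on a floxed Hdac3 gene. The wild type group held 3 samples, and all 6 samples were on the C57BL6 background with no treatment named. The comparison is of samples with Hdac3, a histone deacetylase, deleted and of wild type samples. Markers of other cell types also differed between these groups, as given below. Effects of the deletion and of the cell make-up thus cannot be told apart here. For the Hdac3 deleted samples, the titles and the genotype name HDAC3, but the source field reads HDAC11 and the description HDACII. The labels used here give neither age nor the number of mice, so p-values cover the spread among these samples alone, part of which may be technical.

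Lysosomes digest proteins, lipids, glycans and nucleic acids delivered by endocytosis, phagocytosis and autophagy. Their soluble hydrolases work at acid pH, which the vacuolar ATPase maintains by pumping protons across a membrane lined with heavily glycosylated proteins such as Lamp1 and Lamp2. Phagocytes such as macrophages are known for a large lysosomal compartment with high levels of many of these enzymes. TFEB and related transcription factors are known to raise many lysosomal genes together by binding an E-box element in their promoters.

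The deposited values are log2 expression by robust multiarray average (RMA), and a difference is the Hdac3 deleted mean minus the wild type mean on that scale, so that 1 is a 2-fold difference. Sample medians over all probe sets were 6.43 to 6.47 in Hdac3 deleted and 6.28 to 6.29 in wild type samples. Pairs of samples correlated across probe sets at 0.9968 to 0.998 within the Hdac3 deleted group, 0.9961 to 0.9972 within the wild type group and 0.9206 to 0.9234 between the groups. Hdac3 measured 8.46, 8.51 and 8.50 in Hdac3 deleted samples, against 9.07, 9.04 and 9.01 in wild type samples. Its difference was -0.55 (SE 0.0503, limma adjusted p = 7.45e-05). The position of this probe set relative to the floxed exons is not given, so the remaining signal cannot be read as uncut gene. Hdac11 averaged 4.89 ± 0.15 in Hdac3 deleted and 5.47 ± 0.063 in wild type samples (SD, n = 3 each), the Hdac3 deleted mean being inside the background range defined below. Its difference was -0.58 (SE 0.0853, limma adjusted p = 0.000864). Both Hdac3 and Hdac11 were thus called lower, as were 38.8% of all genes, so these values do not settle the conflict between the labels. The 3′ minus 5′ signal of the Gapdh control probe sets, a sign of RNA integrity, was 0.48 to 0.52 in Hdac3 deleted and 0.20 to 0.51 in wild type samples, and that of Actb 0.46 to 0.52 in Hdac3 deleted and 0.30 to 0.47 in wild type samples, on the log2 scale.

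Lysosomal genes were higher in the Hdac3 deleted samples in all 3 roles. Of the 39 genes 36 rose by limma at an adjusted p under 0.05, and 3 (Glb1, Atp6v1d and Atp6v1h) did not pass. By the same test 22.4% of all genes were higher and 38.8% lower in Hdac3 deleted samples. Such shares only describe the list, which was drawn up with earlier results known. None of the 39 genes was called lower by limma or by the methods' t-test, and 0 were lower at an unadjusted p under 0.05. Of the 39, 27 rose at least 2-fold, against 9.04% of all genes, while 4.46% of all genes and 0 of the 39 fell that far. At least 4-fold rises numbered 14, against 4.52% of all genes, and at least 8-fold rises 8, against 2.57%. The median difference over the 39 genes was 1.38, and over all genes it was -0.17. Groups were free of overlap in 38 of the 39 genes, Glb1 being the exception, and in 67.4% of all genes. Averaged over the 39 genes, samples measured 10.59, 10.61 and 10.60 in the Hdac3 deleted group, against 8.69, 8.70 and 8.74 in the wild type group.

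The scaling of the arrays shifted the differences, by the same amount for every gene with median centring but not with cyclic loess. Median centring gave a median of -0.33 over all genes and 1.22 over the 39, and cyclic loess gave 0.00 and 1.56, against -0.17 and 1.38 as deposited. Bacterial control probe sets, which should meet no target in mouse RNA, spanned 2.37 to 5.16, and every one of the 39 genes averaged above that range in both groups. The SD within a group was at most 0.12 over the 39 genes in Hdac3 deleted samples and at most 0.24 in wild type samples. In bulk RNA, fewer cells of a type and less RNA per cell cannot be told apart.

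**Figure D1:**
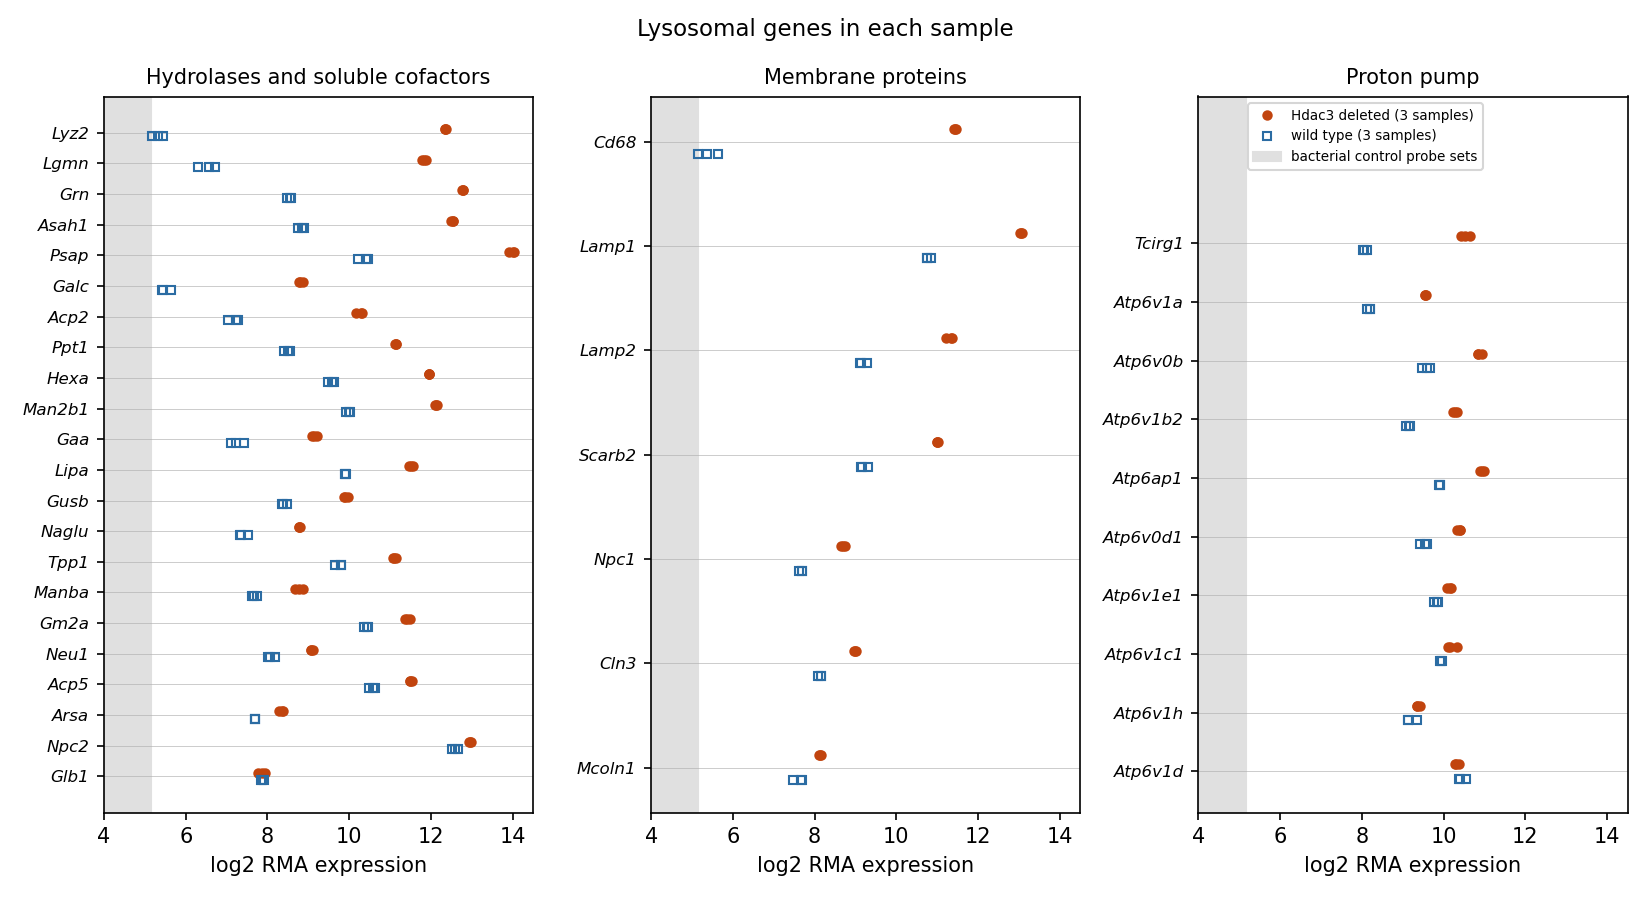
Log2 RMA expression (horizontal axis) of 39 lysosomal genes in each of 3 Hdac3 deleted samples (filled circles) and 3 wild type samples (open squares), by role and ordered by difference. The grey band is the range of 27 bacterial control probe sets, up to 5.16. Circles and squares overlap only for Glb1, and circles lie to the left of squares only for Atp6v1d.

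Markers of other cells moved in the same samples, in which 22.4% of all genes were higher and 38.8% lower by limma. Of 21 measured monocyte and macrophage markers (Lyz2 and Cd68 not among them) 20 rose and 0 fell by limma (0 lower at an unadjusted p under 0.05 and by the methods' t-test), with a median difference of 6.69, and Csf1r, the macrophage growth factor receptor, differed by 7.54. Their summed linear signal was 115900 to 120000 in Hdac3 deleted and 1039 to 1152 in wild type samples, where 13 of the 21 lay in the background range. All 13 measured neutrophil markers rose, with summed signals of 38480 to 39050 in Hdac3 deleted and 373 to 505 in wild type samples, 8 of them inside the background range in wild type. Of the 8 dendritic cell markers 4 rose, namely Batf3 by 5.31 (wild type at background), Itgax by 4.29, Irf8 by 3.09 and Flt3 by 0.38. Ccr7 fell by 0.92, while Zbtb46, Xcr1 and Cd209a were at background in either group. Sums over the 8 were 5816 to 5903 in Hdac3 deleted and 3533 to 3584 in wild type samples. Ccr7 was the brightest of the 8 in wild type samples, averaging 11.62. Of the 7 B cell markers 2 rose and 1 fell, with sums of 418 to 470 in Hdac3 deleted and 289 to 326 in wild type samples. Cd79b rose by 1.01, but the rise of Fcer2a and the fall of Blk lay at background in both groups. In all 5 of the 7, Ms4a1 and Pax5 included, were at background in either group. The 4 CD3 genes of T cells fell, with sums of 8347 to 8491 in Hdac3 deleted and 21200 to 22650 in wild type samples. The regulatory T cell factor Foxp3 was at background, averaging 3.68 in Hdac3 deleted and 3.77 in wild type samples, so the labelled cell type cannot be checked on it. Of 7 regulatory T cell markers 1 rose and 4 fell by limma, where 38.8% of all genes fell. Il2ra, which encodes CD25, rose by 0.71. The differences of those that fell were -2.03 for Izumo1r, -1.9 for Gpr83, -1.58 for Ikzf2 and -0.86 for Tnfrsf18. Foxp3 and Ctla4 were not called. Sums over the 7 were 6521 to 6716 in Hdac3 deleted and 11030 to 11260 in wild type samples. Summed over the 39 lysosomal genes, the linear signal was 101500 to 102800 in Hdac3 deleted and 27700 to 28860 in wild type samples. The part of these cell markers in the lysosomal differences was not tested.

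The promoters of the listed genes were searched for the E-box that TFEB-type factors bind, the palindrome CACGTG. Whether such factors have a part in the differences was not tested. RefSeq promoters (GRCm38.p6), from 250 bases before to 50 after the start, were at hand for 37 of the 43 listed genes, and 11 of these (29.7%) held an E-box, against 8.09% of 27025 genes and 7.15% of 32851 promoters. The 11 genes held 17 E-boxes, which began 3 to 149 bases before the start. They are shown because they carry this shared element, each with 20 bases on either side, 5′ to 3′ on the gene's strand, with every E-box in capitals.
Lamp1, chr8:13159080-13159171, plus strand: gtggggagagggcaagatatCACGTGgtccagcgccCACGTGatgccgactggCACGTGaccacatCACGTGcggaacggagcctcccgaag
Cln3, chr7:126583332-126583405, minus strand: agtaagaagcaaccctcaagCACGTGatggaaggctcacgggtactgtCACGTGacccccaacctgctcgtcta
Mcoln1, chr8:3500428-3500499, plus strand: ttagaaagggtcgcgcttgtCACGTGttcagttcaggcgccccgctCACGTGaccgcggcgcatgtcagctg
Atp6v0d1, chr8:105566042-105566087, minus strand: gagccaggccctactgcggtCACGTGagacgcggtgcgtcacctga
Atp6v1a, chr16:44139365-44139410, minus strand: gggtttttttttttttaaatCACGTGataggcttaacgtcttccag
Atp6v0b, chr4:117887322-117887385, minus strand: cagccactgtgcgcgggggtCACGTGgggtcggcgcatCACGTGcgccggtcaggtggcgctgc
Lgmn, chr12:102439116-102439161, minus strand: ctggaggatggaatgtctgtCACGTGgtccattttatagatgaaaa
Gaa, chr11:119267803-119267848, plus strand: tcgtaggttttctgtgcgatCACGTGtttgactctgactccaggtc
Naglu, chr11:101070001-101070046, plus strand: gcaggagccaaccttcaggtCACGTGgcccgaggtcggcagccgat
Arsa, chr15:89477415-89477460, minus strand: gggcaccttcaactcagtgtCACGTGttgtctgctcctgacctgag
Glb1, chr9:114401010-114401055, plus strand: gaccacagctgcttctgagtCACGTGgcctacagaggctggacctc

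All 11 genes also held the longer form TCACGTG on either strand, which 4.29% of all genes did. The palindrome TCACGTGA lay in the promoters of Atp6v0d1, Atp6v1a, Cln3 and Mcoln1 (10.8% of the 37, against 1.12% of all genes), and GTCACGTGAC in that of Cln3 alone (2.70%, against 0.370%). Each longer form contains the shorter, so these are not separate matches. Lamp1, whose product is among the most abundant lysosomal membrane proteins, had 4 E-boxes, and Cln3, Mcoln1 and Atp6v0b had 2 each. CACGTG is a general E-box that many factors can bind, and these shares are a description of the list. Of the 11 genes with an E-box 10 rose, with a median difference of 1.30 and a range of -0.02 to 5.29, and of the 23 measured genes without it 22 rose, with a median of 1.81 and a range of -0.13 to 7.04. The genes with the larger differences were thus on both sides. Lyz2, with the largest difference of the 39, had no E-box in its promoter at chr10:117282223-117282522 (minus strand), shown here for contrast, where no match says only that these letters are not in this window.
Lyz2: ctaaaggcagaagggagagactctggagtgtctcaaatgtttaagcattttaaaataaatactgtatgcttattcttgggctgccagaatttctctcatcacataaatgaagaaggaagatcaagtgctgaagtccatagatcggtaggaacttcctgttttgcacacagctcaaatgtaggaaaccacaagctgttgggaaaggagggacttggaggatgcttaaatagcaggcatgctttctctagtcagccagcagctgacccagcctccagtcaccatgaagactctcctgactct

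Among the hydrolases and their soluble cofactors 21 of 22 rose and 0 fell by limma (0 lower at an unadjusted p under 0.05 and by the methods' t-test), with a median difference of 1.75 and 17 of them at least 2-fold higher. The differences ran from -0.02 for Glb1 to 7.04 for Lyz2, and the macrophage markers given above rose in the same samples. Lyz2 encodes lysozyme M, which cleaves bacterial cell walls and is itself a widely used myeloid marker. It measured 12.35, 12.34 and 12.38 in Hdac3 deleted samples, against 5.44, 5.18 and 5.33 in wild type samples. The groups stood 7.04 apart, 132-fold (limma adjusted p = 5.02e-09), and the wild type values lay just above the background range. Its close copy Lyz1 was higher by 7.74 in a probe set of a kind that can match several transcripts. Another set of that kind averaged 11.92 in Hdac3 deleted and, at background, 4.24 in wild type samples. The remaining Lyz1 set was at background in either group, with means of 4.69 in Hdac3 deleted and 4.03 in wild type samples. Signal of Lyz1 and Lyz2 may therefore be shared.

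Lgmn and Grn followed Lyz2 in size among the hydrolases and cofactors. Lgmn encodes legumain, an asparaginyl endopeptidase that matures other lysosomal proteases. Lgmn measured 11.83, 11.77 and 11.87 in Hdac3 deleted samples, against 6.57, 6.30 and 6.72 in wild type samples. Its difference was 5.29 (SE 0.108, limma adjusted p = 5.69e-08). All Hdac3 deleted values lay far above the wild type values. Grn encodes progranulin, a secreted and lysosomal protein that is cut into granulins. It measured 12.76, 12.79 and 12.78 in Hdac3 deleted samples, against 8.48, 8.54 and 8.57 in wild type samples, higher by 4.25 (SE 0.0528, limma adjusted p = 8.98e-09). The groups were far apart beside their own spread. Tpp1, tripeptidyl peptidase, averaged 11.10 ± 0.041 in Hdac3 deleted and 9.74 ± 0.091 in wild type samples (SD, n = 3 each) and rose by 1.35.

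Genes that act on sphingolipids and other lipids rose by unequal amounts. Psap encodes prosaposin, the precursor of the saposins that present sphingolipids to their hydrolases. It measured 13.92, 14.02 and 14.00 in Hdac3 deleted samples, against 10.22, 10.42 and 10.46 in wild type samples, a difference of 3.61 (SE 0.0773, limma adjusted p = 6.82e-08). Asah1, acid ceramidase, measured 12.54, 12.48 and 12.53 in Hdac3 deleted samples, against 8.74, 8.85 and 8.90 in wild type samples. That is a difference of 3.69 (SE 0.061, limma adjusted p = 2.26e-08), with no overlap of the groups. Galc, which removes galactose from galactosylceramide, measured 8.79, 8.78 and 8.88 in Hdac3 deleted samples, against 5.65, 5.42 and 5.45 in wild type samples, and rose by 3.31. Its wild type values lay close to background. Ppt1, which removes palmitate from proteins, rose by 2.64, and Lipa, the acid lipase that frees cholesterol from its esters, by 1.61. Gm2a, the cofactor that lifts GM2 ganglioside to hexosaminidase A, rose by 1.01. Npc2, the soluble cholesterol carrier, was already bright in wild type samples. It measured 12.97, 12.95 and 12.94 in Hdac3 deleted samples, against 12.59, 12.51 and 12.65 in wild type samples. Its rise of 0.37 (SE 0.0564, limma adjusted p = 0.0011) was the smallest among the called genes of this role, and all 3 Hdac3 deleted values were above all wild type values.

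Of the 10 genes for glycosidases, counting Galc and the sulfatase Arsa, 9 rose, with a median of 1.45. Hexa, the alpha subunit of hexosaminidase, measured 11.96, 11.96 and 11.95 in Hdac3 deleted samples, against 9.49, 9.62 and 9.58 in wild type samples. Its difference was 2.39 (SE 0.0553, limma adjusted p = 9.52e-08). Man2b1, the acid alpha-mannosidase, measured 12.11, 12.13 and 12.14 in Hdac3 deleted samples, against 9.93, 10.01 and 9.99 in wild type samples, and rose by 2.15. In both genes the groups lay far apart. Gaa, which breaks down glycogen, rose by 1.90, Gusb, beta-glucuronidase, by 1.52, Naglu, which acts on heparan sulfate, by 1.39 and Manba, beta-mannosidase, by 1.10. Arsa, which desulfates sulfatides, averaged 8.33 ± 0.053 in Hdac3 deleted and 7.69 ± 0.0041 in wild type samples (SD, n = 3 each), a rise of 0.64. Neu1, the lysosomal sialidase, averaged 9.08 ± 0.03 in Hdac3 deleted and 8.09 ± 0.09 in wild type samples (SD, n = 3 each) and rose, on the edge of 2-fold. Glb1, the beta-galactosidase that is known to sit in a complex with Neu1, measured 7.77, 7.94 and 7.87 in Hdac3 deleted samples, against 7.85, 7.86 and 7.92 in wild type samples. Its groups overlapped, with a difference of -0.02 (SE 0.0628, limma adjusted p = 0.825), which turned to 0.16 with cyclic loess (adjusted p = 0.0523) and was called lower at -0.18 with median centring (adjusted p = 0.0296).

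Both acid phosphatases rose. Acp2, the lysosomal acid phosphatase, measured 10.17, 10.30 and 10.31 in Hdac3 deleted samples, against 7.27, 7.23 and 7.03 in wild type samples. It stood 3.08 higher (SE 0.0817, limma adjusted p = 1.72e-07), and 2 further probe sets were higher by 3.74 and 3.87. Acp5, the tartrate-resistant phosphatase known from osteoclasts and macrophages, measured 11.53, 11.48 and 11.49 in Hdac3 deleted samples, against 10.58, 10.63 and 10.48 in wild type samples. Its rise of 0.94, just under 2-fold, left no overlap between the groups.

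**Figure D2:**
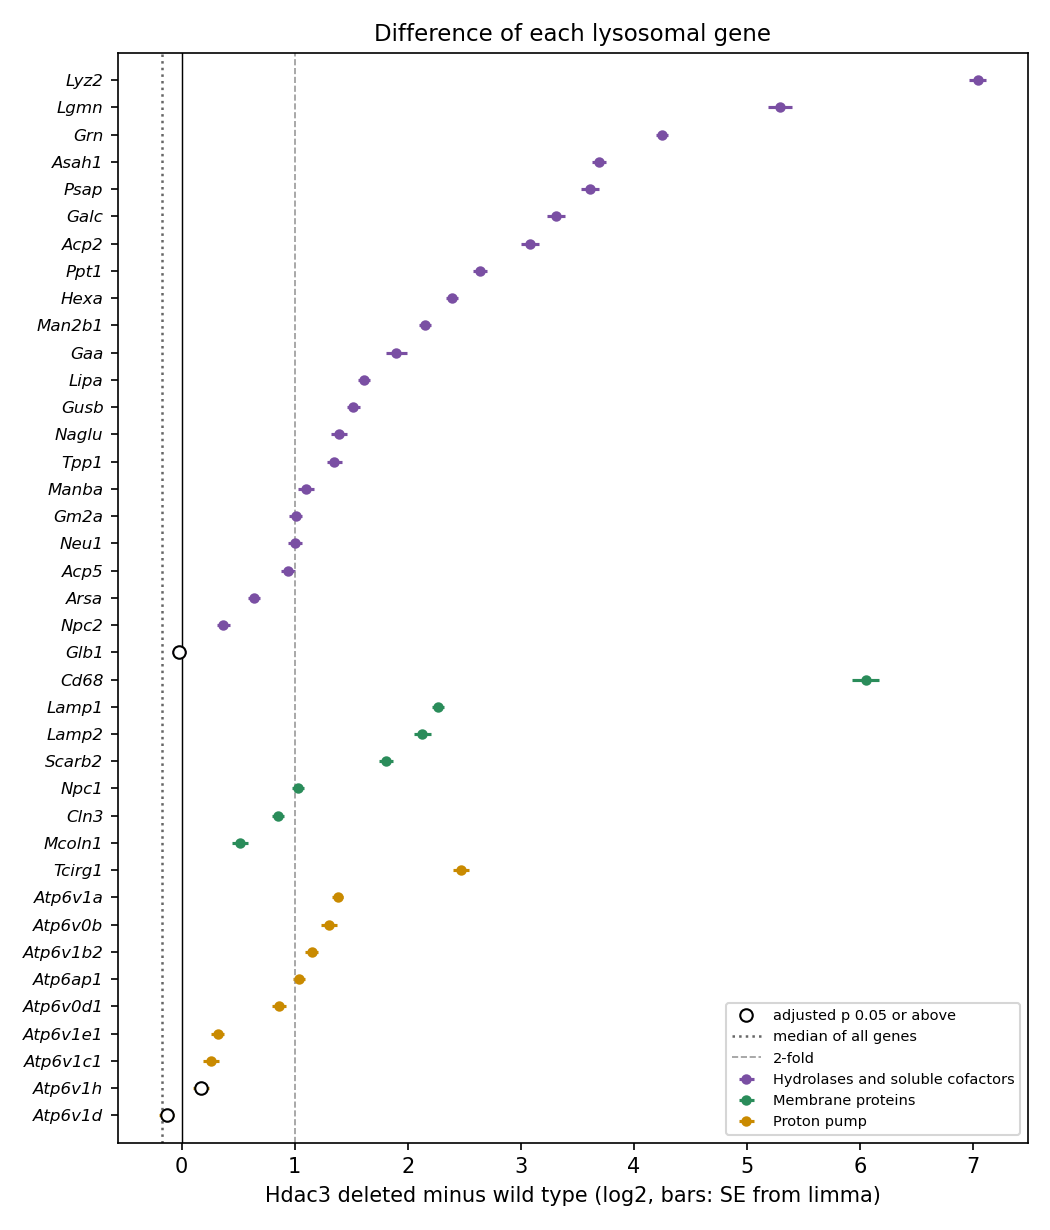
Difference of each of 39 lysosomal genes (Hdac3 deleted minus wild type, log2) with its standard error from limma, grouped by role. Open circles mark Glb1, Atp6v1d and Atp6v1h, which did not pass adjusted p 0.05. The dotted line is the median of all genes (-0.17) and the dashed line 2-fold, which 27 genes exceeded.

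All 7 measured membrane protein genes rose, 5 of them at least 2-fold, with a median of 1.81 and a range of 0.52 to 6.05, alongside the rise of 20 of 21 macrophage markers. Cd68 encodes macrosialin, a Lamp family protein of macrophages and a common marker of them. Cd68 measured 11.43, 11.41 and 11.45 in Hdac3 deleted samples, against 5.15, 5.64 and 5.36 in wild type samples. Its difference was 6.05 (SE 0.118, limma adjusted p = 4.56e-08), or 66.1-fold, and the lowest wild type value touched the background range. Lamp1 measured 13.03, 13.04 and 13.07 in Hdac3 deleted samples, against 10.84, 10.75 and 10.74 in wild type samples, and differed by 2.27 (SE 0.0546, limma adjusted p = 1.11e-07). Lamp2 measured 11.33, 11.36 and 11.21 in Hdac3 deleted samples, against 9.10, 9.14 and 9.28 in wild type samples, and differed by 2.13 (SE 0.072, limma adjusted p = 5.62e-07). The RNA signals of these abundant structural glycoproteins thus stood more than 4-fold higher as deposited, and the spread within groups was small beside that. With median centring the Lamp2 difference was 1.97, just under 4-fold.

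Scarb2, which carries glucocerebrosidase to the lysosome, rose by 1.81 (SE 0.0615, limma adjusted p = 5.81e-07) with no overlap of the groups. Npc1, the transporter that exports cholesterol from the lysosome together with Npc2, averaged 8.70 ± 0.049 in Hdac3 deleted and 7.67 ± 0.041 in wild type samples (SD, n = 3 each), a rise of 1.03. Cln3, a membrane protein lost in a juvenile form of neuronal storage disease, averaged 8.98 ± 0.031 in Hdac3 deleted and 8.13 ± 0.051 in wild type samples (SD, n = 3 each), a rise of 0.85. Mcoln1, a calcium channel of the lysosome, measured 8.10, 8.16 and 8.12 in Hdac3 deleted samples, against 7.67, 7.48 and 7.68 in wild type samples. Its rise of 0.52 (SE 0.0708, limma adjusted p = 0.000616) was the smallest of the 7, and a second probe set differed by 0.16 without passing (adjusted p = 0.170).

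In the proton pump 8 of 10 genes rose and 0 fell by limma (0 lower at an unadjusted p under 0.05 and by the methods' t-test), 5 of them at least 2-fold, with a median of 0.95. The vacuolar ATPase joins a membrane sector, V0, through which protons pass, to a cytosolic sector, V1, which splits ATP. All 3 measured V0 genes rose. Tcirg1 encodes the a3 subunit of V0, known from the pumps of osteoclasts and phagocytes. Tcirg1 measured 10.43, 10.52 and 10.64 in Hdac3 deleted samples, against 8.05, 8.12 and 8.02 in wild type samples. It had the largest difference of the pump genes, 2.47 (SE 0.0693, limma adjusted p = 2.23e-07). Atp6v0b, a proteolipid of the proton ring, measured 10.85, 10.94 and 10.85 in Hdac3 deleted samples, against 9.59, 9.47 and 9.67 in wild type samples. That is a rise of 1.30, while its other probe sets rose by 1.15 and 0.41 and the mean of its sets by 0.95. All its sets are of a kind that can match several transcripts. Atp6v0d1, the d subunit that couples the ring to the central stalk, measured 10.41, 10.39 and 10.34 in Hdac3 deleted samples, against 9.43, 9.54 and 9.60 in wild type samples, a rise of 0.86. The accessory gene Atp6ap1, needed for assembly of the pump, rose by 1.04.

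The V1 genes differed in size, with a median of 0.29 over 6 genes. Atp6v1a and Atp6v1b2 encode the A and B subunits that bind ATP and form the V1 head. Atp6v1a measured 9.55, 9.57 and 9.54 in Hdac3 deleted samples, against 8.13, 8.19 and 8.19 in wild type samples, a difference of 1.38 (SE 0.0506, limma adjusted p = 8.29e-07). Atp6v1b2 measured 10.32, 10.23 and 10.28 in Hdac3 deleted samples, against 9.07, 9.16 and 9.17 in wild type samples, a difference of 1.15 (SE 0.0577, limma adjusted p = 3.82e-06). Both genes of the head were thus more than 2-fold higher as deposited, without overlap, while Atp6v1b2 differed by 0.99 with median centring. The 4 genes of the stalks and the regulatory subunit stayed within 0.32. Atp6v1e1, a part of the outer stalks, measured 10.09, 10.16 and 10.17 in Hdac3 deleted samples, against 9.83, 9.76 and 9.87 in wild type samples, a rise of 0.32, which did not pass without probe sets that can match several transcripts (0.16, limma adjusted p = 0.275). Atp6v1c1, which ties the stalks to the head, measured 10.15, 10.33 and 10.10 in Hdac3 deleted samples, against 9.91, 9.96 and 9.94 in wild type samples. Its rise of 0.26 was not called with the mean of its probe sets (0.06, adjusted p = 0.490) or with median centring (0.10, adjusted p = 0.204), and it turned to -0.15 without probe sets that can match several transcripts (adjusted p = 0.148).

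Atp6v1h, the regulatory H subunit, measured 9.42, 9.35 and 9.36 in Hdac3 deleted samples, against 9.13, 9.13 and 9.34 in wild type samples. Its difference of 0.17 (SE 0.0736, limma adjusted p = 0.0771) came to 0.37 with cyclic loess (adjusted p = 0.00317) and, when wild type replicate 3 was left out, to 0.24 (adjusted p = 0.0148). At 0.17 it also passed with a trended robust prior (adjusted p = 0.0143) and with the dimmest genes left out (adjusted p = 0.0467), while median centring gave 0.01 (adjusted p = 0.868). Atp6v1d, a part of the central rotor, measured 10.38, 10.31 and 10.27 in Hdac3 deleted samples, against 10.38, 10.41 and 10.54 in wild type samples. The Hdac3 deleted values lay at or below the wild type values, touching at 10.38, with a difference of -0.13 (SE 0.0664, limma adjusted p = 0.135), which was -0.29 with median centring (adjusted p = 0.00665) and 0.08 with cyclic loess (adjusted p = 0.322). Neither direction is thus settled for Atp6v1d. Whether the head and the stalk genes differ in their response was not tested.

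Further probe sets of the same genes mostly went the same way. There were 34 of them, for 22 genes, and 25 were higher, 2 lower and 7 not called by limma, against 20.1% of all probe sets higher and 37.4% lower. Of the 34, 30 averaged above the background range in a group, and 24 of these were higher and 1 lower, namely a second set of Atp6v1d at -0.24 (adjusted p = 0.0151). In 15 of the 22 genes all probe sets had the same call. Grn was higher by 4.25, 4.36 and 4.71 in its 3 sets and Psap by 3.61 and 3.88, whereas only the brightest of the 3 Galc sets, at 3.31, was above background in wild type samples. Of the other Galc sets, 1 averaged 5.36 in Hdac3 deleted and, at background, 4.48 in wild type samples, and the other was at background in either group and was not called. Man2b1 gave 2.15 and 0.99, Gusb 1.52 and 0.40, and Neu1 0.40 and -0.33 in its 2 further sets, the last again at background.

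**Figure D3:**
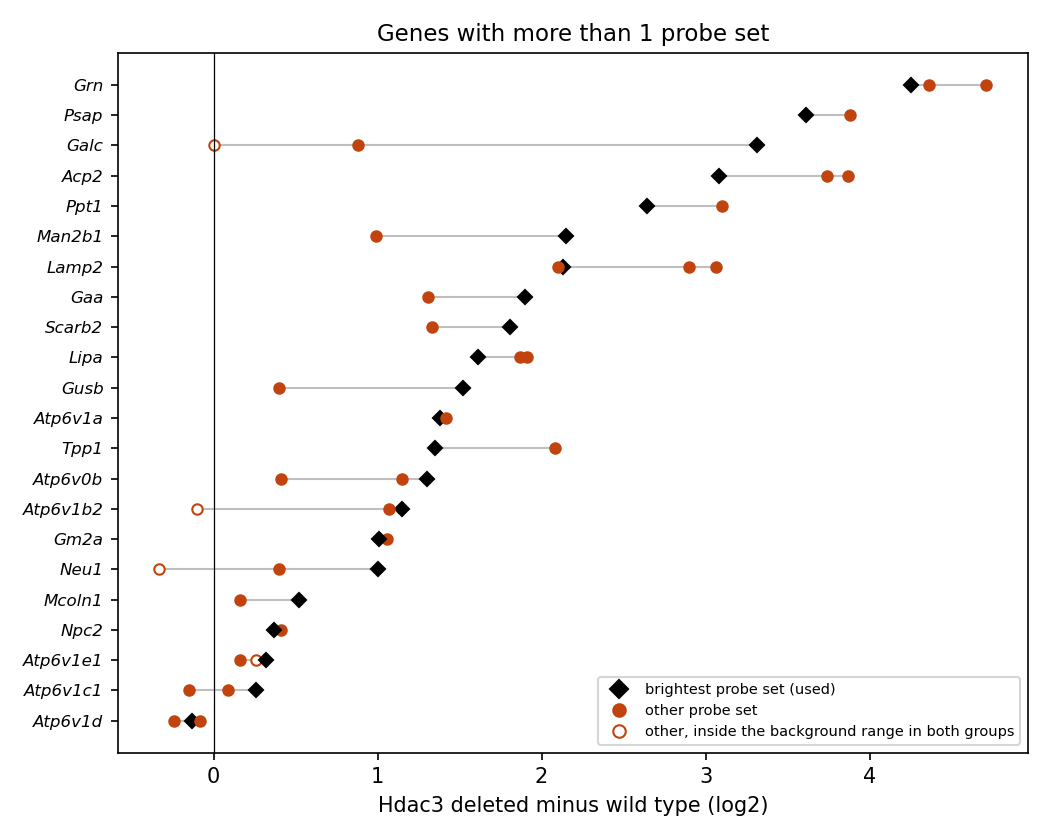
Difference (Hdac3 deleted minus wild type, log2) of every probe set of the 22 lysosomal genes that have more than 1. Diamonds are the brightest sets, used for the gene, and circles the others, open where they lie inside the background range in both groups. The sets of Grn and Psap lie close together, and those of Galc lie far apart.

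Lysosomal genes outside the 43 moved less evenly. Of 95 measured genes in 5 further lists, also drawn up with earlier results known, 62 rose and 14 fell. Their median was 0.39, and of all genes 22.4% rose and 38.8% fell. Other hydrolases and their helpers rose in 12 of 16 genes and fell in 0 by limma (0 lower at an unadjusted p under 0.05 and by the methods' t-test), with a median of 0.62. Pla2g15, the lysosomal phospholipase, rose by 4.83, the prenylcysteine oxidase Pcyox1 by 3.64 and the thioesterase Ppt2 by 2.48. Other membrane proteins rose in 19 and fell in 4 of 24 genes, with a median of 0.85. Slc11a1, a metal transporter of phagosomes, rose by 6.06, Litaf by 3.17 and Hgsnat, which acetylates heparan sulfate, by 2.24, while the transporters Abca2 and Abcb9 fell by 0.85 and 0.45 and the channel gene Tpcn1 by 0.65.

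The other pump subunits and assembly factors were divided, with 6 higher, 3 lower and 7 not called of 16, and a median of 0.02. The accessory gene Atp6ap2 rose by 1.65, the V0 subunit a1 gene Atp6v0a1 by 1.64 and the assembly factor Vma21 by 0.50, while Tmem9, the V1 gene Atp6v1f and the V0 gene Atp6v0a2 fell by 0.84, 0.41 and 0.27. With cyclic loess 9 of the 95 genes of these 5 lists were lower and with median centring 23, so small falls have no settled count.

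Genes that sort proteins to lysosomes rose in 18 and fell in 4 of 25, mostly by little (median 0.38). Sort1, the sorting receptor sortilin, rose by 3.40, the adaptor Gga2 by 1.32 and the tethering factor Vps18 by 1.14. Igf2r, the larger of the mannose 6-phosphate receptors that carry hydrolases to lysosomes, fell by 1.08, while M6pr, the smaller receptor, named after its value was seen, rose by 0.81. The adaptor genes Ap1m1 and Ap3s2 fell by 0.42 and 0.35. Among regulators of lysosome biogenesis 7 rose and 3 fell of 14, with a median of 0.14. Tfec, of the same family as TFEB and known from macrophages and osteoclasts, was inside the background range in wild type samples. It measured 9.61, 9.70 and 9.58 in Hdac3 deleted samples, against 4.21, 3.46 and 3.66 in wild type samples, at least 22.2-fold higher. Mitf, of the same family, measured 9.09, 9.03 and 8.87 in Hdac3 deleted samples, against 4.97, 5.36 and 5.46 in wild type samples, a difference of 3.74 (SE 0.134, limma adjusted p = 7.48e-07). Tfeb itself, named after its values were seen, rose by 0.41 and Flcn, which controls its location, by 0.56. The nutrient sensing genes of this list went both ways: Rraga, Lamtor5 and Lamtor2 fell by 0.56, 0.40 and 0.27, while Rragc, Lamtor3 and Lamtor4, named after their values were seen, rose by 0.37, 0.39 and 0.20. Among Tfeb, Tfec and Mitf, the large differences were thus in Tfec and Mitf, in the same samples in which macrophage and neutrophil markers rose. Any link between these was not tested.

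**Figure D4:**
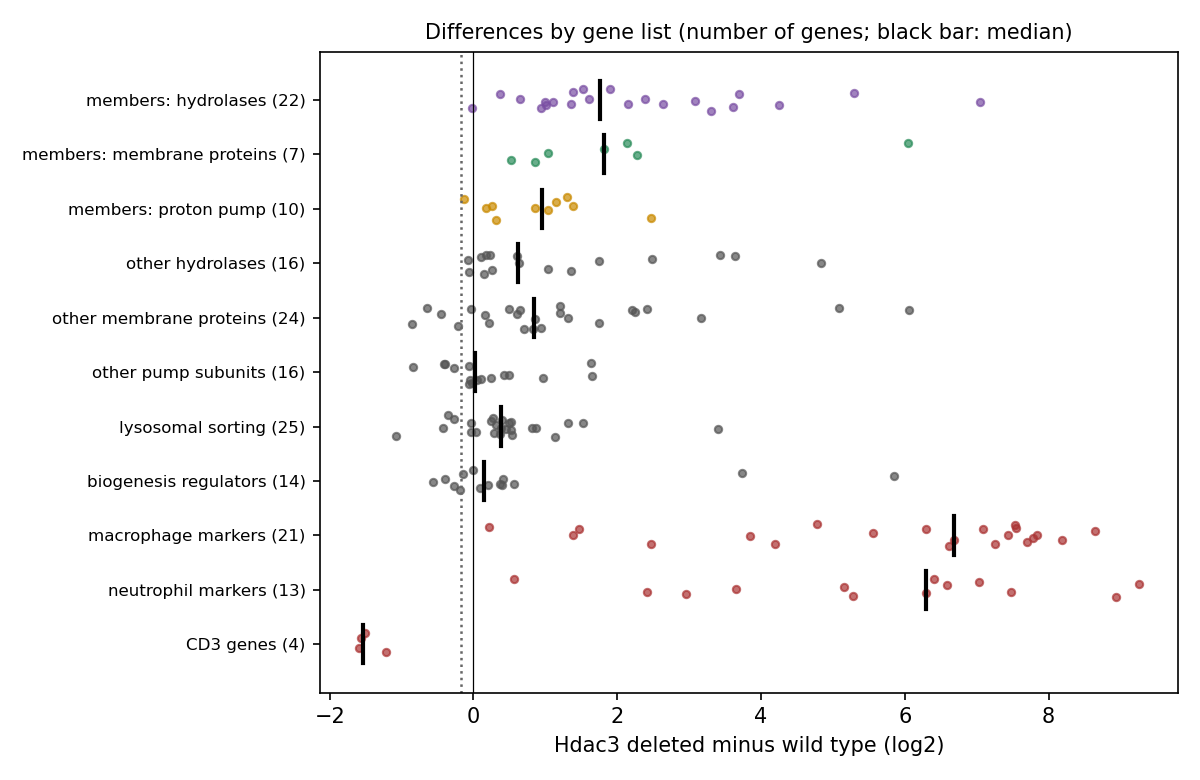
Difference of each gene (Hdac3 deleted minus wild type, log2) in the 3 roles of the 39 lysosomal genes (here "members"), in the 5 further lysosomal lists, and in markers of macrophages, neutrophils and T cells, with the number of genes in brackets. Black bars are medians and the dotted line is the median of all genes. The medians of the 3 roles were 1.75, 1.81 and 0.95, below those of the macrophage (6.69) and neutrophil (6.29) markers.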

How the data were processed

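Per the series' design text, the authors ran robust multiarray average in MAYDAY 2.12; the range of the deposited values is that of log2 expression. That method usually aligns the arrays at probe level, so differences in total RNA per cell are not visible, yet sample medians of the deposited values still differed between the groups (6.43 to 6.47 in Hdac3 deleted, 6.28 to 6.29 in wild type). The background step and array set of that normalisation are not given in the sources used here. Of 22690 probe sets, 64 controls were left out. The platform annotation gave 1 symbol to 20380 of the other 22626, several to 691 and none to 1555, and 20351 matched RefSeq (GRCm38.p6) by Entrez identifier with 0 symbols changed. Groups came from the titles. The main test was limma 3.58.1 (two-sided; lmFit, eBayes) in R 4.3.3 over 12393 genes, or over all probe sets, with Benjamini-Hochberg adjustment; the threshold was adjusted p 0.05. Where 1 group lay in the range of 27 bacterial control probe sets, the fold is a bound from the top of that range. The code of the test was checked on simulated data with independent noise and few changed genes. That setting is unlike these data, so the check does not cover the calls made here. The lists and the 43 genes were chosen with earlier results of these data known. All listed genes may be named, and of each further lysosomal list up to 3 called genes per direction with the smallest p. Plots used Python 3.11.15 with matplotlib 3.10.9. Alternatives were the methods' t-test, a replicate block, median centring, cyclic loess, the dimmest 33.3% left out, the mean of probe sets, no probe sets ending _x_at, _s_at or _a_at, a trended robust prior and each sample left out. The number of arrays limits the precision.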

Additional observations from a re-analysis of the deposited data

How the results depend on the processing

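The number of lysosomal genes that rose was 36 of 39 in the main analysis and 35 to 37 under the alternatives that tested all 39. With multi-transcript probe sets left out it was 25 of the 30 genes left, with 1 lower (Atp6v1d) and a median difference of 1.25. The number lower was 0, but 2 (Glb1 and Atp6v1d) with median centring and 1 (Atp6v1d) with the trended robust prior. Cyclic loess gave a median difference of 1.56 and 9 lower genes in the 5 further lists, median centring 1.22 and 23, against 14 lower as deposited. Leaving out each sample gave 36 to 37 genes higher, 0 lower, 26 to 28 at least 2-fold higher, a median of 1.35 to 1.39, 54 to 60 higher and 13 to 14 lower in the further lists and 23 to 25 higher among the other probe sets. Of the comparisons of single genes with their main value, 521 kept direction and side of the threshold, 8 gained a call, 3 lost it and 5 turned sign. Those that turned were Glb1 (0.16 with cyclic loess, -0.06 to 0.03 over the omissions of 1 sample, above 0 without Hdac3 deleted replicate 1 and, at 0.01, without wild type replicate 3), Atp6v1d (0.08 with cyclic loess) and Atp6v1c1 (-0.15 with multi-transcript probe sets left out). The count at least 2-fold higher, 27, was 22 with median centring, 24 with the mean of probe sets, 31 with cyclic loess and 19 of the 30 genes with multi-transcript probe sets left out. The further lists had 62 higher genes, 51 with median centring and 67 with cyclic loess. The cause was not tested. With the replicate number as a block 36 genes rose. Deviations of same-numbered samples correlated at 0.0885, 0.0646 and -0.201, and the best correlation of a sample was not always with its own number. The numbers thus gave no sign of pairing, but deviations within groups of 3 samples cannot exclude it. Signal near background limits Lyz2, Cd68 and Galc in wild type samples.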
